A study of Mus musculus with 16 samples.

Results

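The subject is a set of 9 transcription regulators that help divide dorsal root ganglion neurons into subtypes: Runx1, Runx3, Cbfb, Shox2, Maf, Mafa, Etv1, Etv4 and Isl2. They were taken by gene symbol from the deposited count table, which held 24421 symbols, and all 9 were present. All 9 also passed the filter on low counts, which left 15641 genes for testing. PolyA RNA was sequenced from lumbar dorsal root ganglia, which house the cell bodies of somatosensory neurons, of embryonic day 13.5 mice on a C57BL/6 background. The 16 libraries form 4 groups of 4. KO_alpha3 embryos are importin α3 -/-, and WT_alpha3 are the wild types of that line. KO_beta embryos lack the importin β1 3′ UTR, and WT_beta are the wild types of that other line. Importins carry proteins into the nucleus. The labels name no Cre driver or transgene. Nothing in them ties a library to an embryo of its own. Every p-value therefore reflects the spread among these libraries, part of which may be technical. The Y-linked counts given below differ within KO_alpha3, so its libraries do not all come from the same embryo. A library is written as its group followed by its title number.

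Early sensory neurons share a common programme and then split by target and by neurotrophin receptor. Runx1 acts in the small neurons that become nociceptors and Runx3 in the large neurons that become proprioceptors, and both bind DNA as heterodimers with Cbfb. Shox2 acts in touch neurons, Maf and Mafa (large Maf proteins) in mechanoreceptors, Etv1 (an ETS factor) in proprioceptors, Etv4 (another ETS factor) downstream of neurotrophic signals, and Isl2 is a LIM homeodomain factor of early sensory and motor neurons. In bulk tissue, fewer cells of a type and less RNA per cell cannot be told apart.

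The promoters of Runx1 and Runx3 share a sequence feature, which is shown because the levels of these paralogues were inversely correlated over the libraries. The RefSeq promoter table (GRCm38.p6, 32851 entries of 250 bases before to 50 after a start) held 9 entries for 6 of the genes, with Runx1, Runx3 and Etv1 represented by 2 each. On either strand the Runt motif TGTGGT was found in 3 of these 9 promoters (Runx1, Runx3 and Etv1), against 16.8% of all entries. One Runx1 and one Runx3 promoter held the motif as a pair, both copies in reverse orientation and separated by 2 bases, a string found in 4 entries of the table (0.0122%). The other entries are Runx2, the remaining Runx paralogue, and Gm16225, whose promoter overlaps that of Runx3 on the opposite strand. The string was searched for after the windows had been seen, so its share is a description. Capitals mark the paired motifs, and each run reads 5′ to 3′ on the strand of its gene.
Runx3: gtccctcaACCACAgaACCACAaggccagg
Runx1: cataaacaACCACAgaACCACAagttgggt
Runx2: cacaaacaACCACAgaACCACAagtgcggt
The Runx3 window is chr4:135120503-135120532 on the plus strand, with the pair beginning at position -134 from the start. The Runx1 window is chr16:92826025-92826054 on the minus strand, with the pair beginning at base 29 counted from the start. The Runx2 window is chr17:44814583-44814612 on the minus strand, with the pair beginning at base 24. The other motifs searched, also on both strands, were the core TGCTGA that Maf proteins bind, in 4 of the 9 promoters (Cbfb, Etv1, Isl2 and Runx3) against 19.5% of all, the ETS motif CCGGAAGT, in none against 3.89%, and the POU4 motif ATAATTAAT, in none against 0.274%. A match is a string of letters and not a measured binding site.

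Library totals ran from 19682595 to 26873361 counts. Kpna4, the gene of importin α3, lay between 0.619 and 1.13 CPM (read counts scaled to a common library size, corrected for library composition) in the KO_alpha3 libraries and between 69.5 and 81.4 in the wild types. Kpnb1, the gene of importin β1, lay between 514 and 564 CPM in KO_beta and between 390 and 531 in the wild types. Only its 3′ UTR is deleted, so its level does not check the labels. Sensory neuron identity was plain in all 16 libraries: Pou4f1, a pan-sensory factor, lay between 241 and 488 CPM, while Mnx1, which defines spinal motor neurons, was at or below 0.601. Markers of neighbouring tissue varied between libraries. Over the 8 wild types the spinal interneuron markers summed to 8.13 to 112 CPM, the motor neuron markers to 82.9 to 163 and the sympathetic markers to 271 to 733. Over all 16 libraries the motor neuron sum was at least 82.9 CPM and the sympathetic sum at least 217. Part of these sums was thus present in every library and does not single out libraries with neighbouring tissue. The summed Y-linked counts were between 105 and 129 CPM in WT_alpha3 and at or below 1.15 in WT_beta, so line and embryo sex cannot be told apart among the wild types. In KO_beta they lay between 132 and 142 in all 4 libraries, while KO_alpha3 held 2 libraries of each kind. Libraries 42 and 81 of KO_alpha3 had 0.320 and 0.0418 CPM, and libraries 50 and 75 had 148 and 133.

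Per kilobase of annotated exon, the level differed widely between the genes in the 8 wild types. Isl2 was highest at 105 ± 26.5 CPM per kb (SD, n = 8), followed by Cbfb at 67.7 ± 8.26, and each of these steps down was larger than the SDs. Shox2 had 21.5 ± 5.49, Runx3 14.0 ± 4.22, Etv4 12.2 ± 2.62, Maf 9.51 ± 2.61, Runx1 7.83 ± 3.83, Etv1 7.69 ± 3.04 and Mafa 5.70 ± 1.04 CPM per kb. From Shox2 down, each gene differed from its neighbour in the order by less than the larger of the SDs, apart from the steps from Shox2 to Runx3 and from Etv4 to Maf. The exon lengths come from GENCODE M21, an annotation of GRCm38, while the annotation behind the counts was not stated. By that annotation Runx1 lies on chromosome 16 (92601466 to 92826149), Runx3 on 4 (135120652 to 135177990), Cbfb on 8 (105170674 to 105217989) and Maf on 8 (115682942 to 115707794). Mafa lies on chromosome 15 (75745490 to 75748228), Etv1 on 12 (38779380 to 38870484) and Isl2 on 9 (55538672 to 55546180). Shox2 lies on chromosome 3 (66971727 to 66981771), 2.09 Mb from Kpna4, and Etv4 on 11 (101769742 to 101785371), 4.58 Mb from Kpnb1. Shox2 overlaps Rsrc1 on the opposite strand, and whether counting used strand is not given, so reads of these genes cannot be separated. Runx1, Runx3, Maf and Isl2 overlap antisense genes that have no row in the count table.

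**Figure D1:**
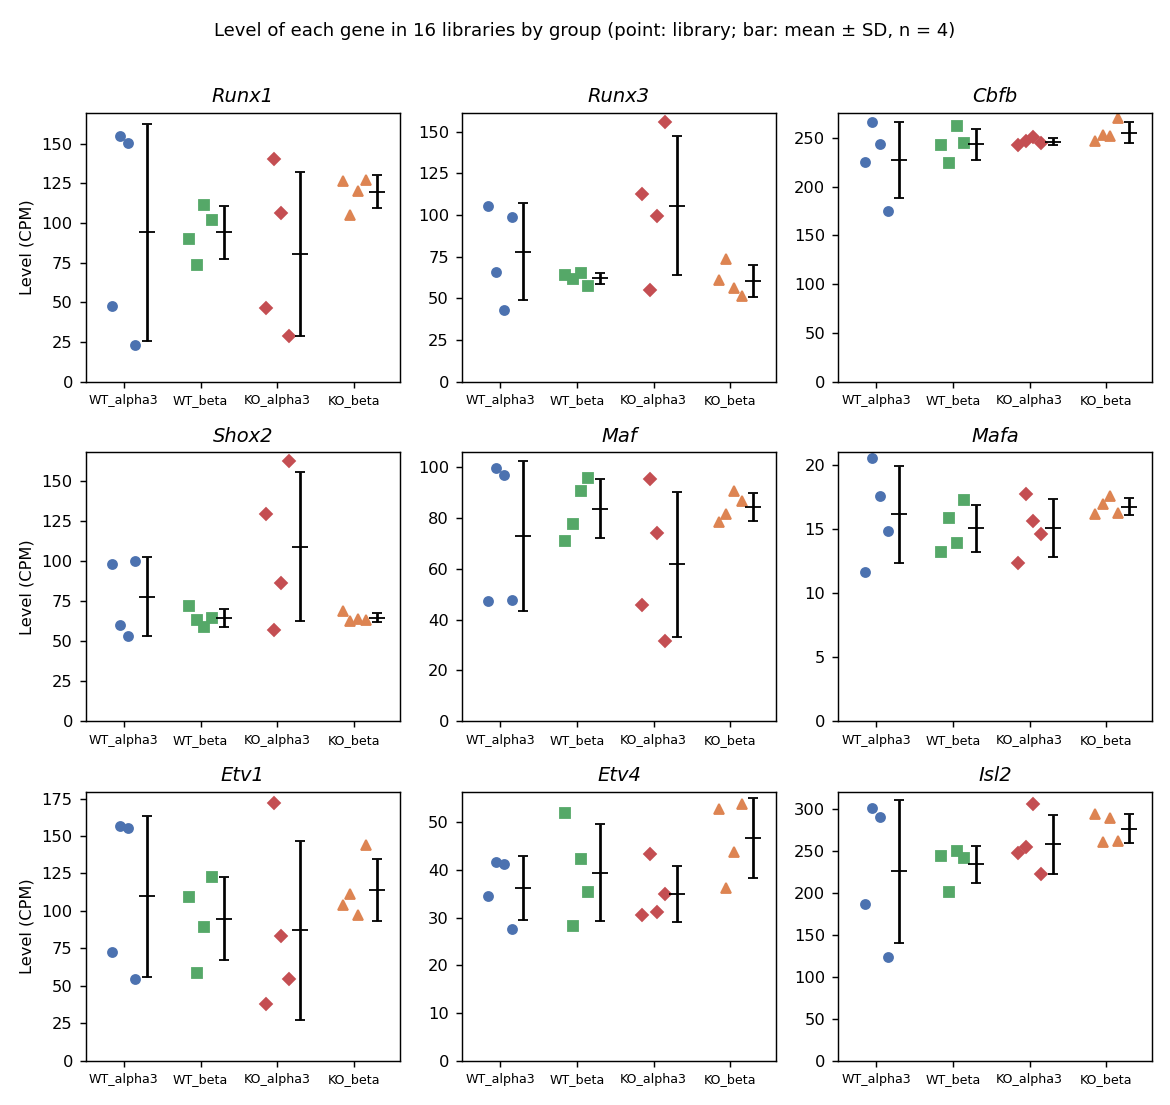
Level of each gene in CPM (vertical axis) in the 16 libraries by group (horizontal axis), with points for libraries and bars for the group mean ± SD (n = 4). WT_alpha3 and KO_alpha3 are spread widely for Runx1, Runx3, Shox2, Maf and Etv1, while the groups of the importin β1 line are tighter.

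Runx1, the nociceptor-lineage factor, varied most of the 9, with a highest level 6.62 times its lowest over the 16 libraries. In WT_alpha3 its level was 48.0, 155, 151 and 23.4 CPM in libraries 45, 54, 55 and 79, and in WT_beta it was 89.9, 73.2, 112 and 102 CPM in libraries 399, 401, 410 and 415. In KO_alpha3 it was 46.6, 140, 106 and 28.6 CPM in libraries 42, 50, 75 and 81, and in KO_beta it was 127, 105, 120 and 127 CPM in libraries 398, 402, 406 and 411. Both groups of the importin α3 line held 2 low libraries, and the ranges of every group overlapped the wild types.

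Runx3, the proprioceptor-lineage factor, was high in the importin α3 libraries low in Runx1, but its order was not opposite throughout the importin β1 line. Its level was 105, 65.8, 42.8 and 98.6 CPM in WT_alpha3 and 63.9, 61.4, 65.2 and 57.2 CPM in WT_beta, in the same library order. In KO_alpha3 it was 113, 54.8, 99.7 and 156 CPM, and in KO_beta 61.3, 73.8, 56.1 and 51.5 CPM. The 4 libraries lowest in Runx1 (WT_alpha3 45 and 79, KO_alpha3 42 and 81) were among the 5 highest in Runx3, with KO_alpha3 75 the other.

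The ratio of Runx1 to Runx3 within a library does not depend on scaling. It was 0.184 in KO_alpha3 81, 0.237 in WT_alpha3 79, 0.414 in KO_alpha3 42 and 0.456 in WT_alpha3 45, and between 1.06 and 3.52 in the other 12 libraries. Those 4 libraries belong to the importin α3 line, 2 from each genotype.

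Shox2, the touch-neuron factor, was high in the importin α3 libraries high in Runx3, while its order differed from that of Runx3 in the importin β1 line. It was 98.3, 59.8, 52.9 and 100 CPM in WT_alpha3, and 71.8, 62.9, 58.7 and 64.5 CPM in WT_beta. In KO_alpha3 it was 130, 57.1, 86.2 and 162 CPM, and in KO_beta 68.9, 62.7, 63.7 and 63.1 CPM. The overlapping Rsrc1 spanned 62.2 to 91.9 CPM in all libraries, with 91.9, 84.4 and 91.0 CPM in KO_alpha3 42, 75 and 81; its part in the Shox2 values was not tested.

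Maf, a mechanoreceptor factor, was low in the importin α3 libraries low in Runx1, while its order differed from that of Runx1 in the importin β1 line. It was 47.3, 99.9, 96.9 and 47.6 CPM in WT_alpha3 and 70.8, 77.7, 90.7 and 95.9 CPM in WT_beta. In KO_alpha3 it was 45.9, 95.6, 74.3 and 31.7 CPM, and in KO_beta 78.4, 81.7, 90.9 and 86.9 CPM. The 4 lowest values of Maf came from the 4 libraries with the lowest ratio of Runx1 to Runx3.

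The ETS factor Etv1 was 72.7, 156, 155 and 54.8 CPM in WT_alpha3 and 109, 58.3, 89.4 and 123 CPM in WT_beta. In KO_alpha3 it was 38.0, 172, 83.2 and 54.8 CPM, and in KO_beta 104, 111, 97.3 and 144 CPM. Of the genes with narrower ranges, Etv4 spanned 27.6 to 54.0 CPM over the 16 libraries, Mafa 11.7 to 20.6, Cbfb 175 to 271 and Isl2 124 to 307.

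The knockouts of importin α3 were compared with the 8 wild types, which the series pools for both projects. None of the 9 genes was called by edgeR's quasi-likelihood test at an adjusted p of 0.05, against 1 gene, Kpna4, of 15641 (0.00639%). Of the members 2 had an unadjusted p under 0.05, as did 1696 genes in all. Runx3 was 0.59 ± 0.24 higher on the log2 scale (SE, adjusted p = 0.417) and Shox2 0.61 ± 0.22 higher (adjusted p = 0.379), neither past the threshold. Shox2 lies on the chromosome of the deleted gene, and the part of that linkage in its value was not tested. With the globin ratio described below as a term, the values were 0.38 ± 0.15 for Runx3 (edgeR, adjusted p = 0.273) and 0.38 ± 0.10 for Shox2 (adjusted p = 0.169). In that fit 4 members and 2237 genes had an unadjusted p under 0.05, the others being Isl2 at 0.31 ± 0.13 (edgeR, adjusted p = 0.311) and Maf at -0.19 ± 0.09 (adjusted p = 0.332). In these libraries the spinal interneuron markers summed to 4.15 to 8.65 CPM, with a median log2 difference of -3.30 from the wild types, and the sympathetic markers to 217 to 404, with a median of -1.60. None of either list was called, and their part in the members' values was not tested. The ranges of all 9 genes overlapped those of the wild types, against 96 genes (0.614%) whose ranges did not. DESeq2 and limma-voom also called none of the 9, while DESeq2 called 128 genes in all. Without KO_alpha3 50, edgeR called 124 genes and still none of the 9.

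The importin β1 knockouts gave 0 called genes of 15641 by edgeR (0%), with 349 genes and none of the 9 members at an unadjusted p under 0.05; DESeq2 called 1 gene. The members' largest differences were Runx1, at 0.35 ± 0.43 (log2, SE), and Etv4, at 0.30 ± 0.16 (adjusted p = 0.932), which shares a chromosome with Kpnb1. Every KO_beta library carried Y-linked counts and only the wild types of the other line did; with these counts as a term none of the 9 was called. All 9 ranges overlapped the wild types, against 21 genes (0.134%) with separate ranges. Between the wild types of the lines, 3 genes of 15641 (0.0192%, with 0.0128% positive and 0.00639% negative) and none of the 9 members were called by edgeR, and the members' log2 differences ran from -0.34 (Runx3) to 0.20 (Maf).

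**Figure D2:**
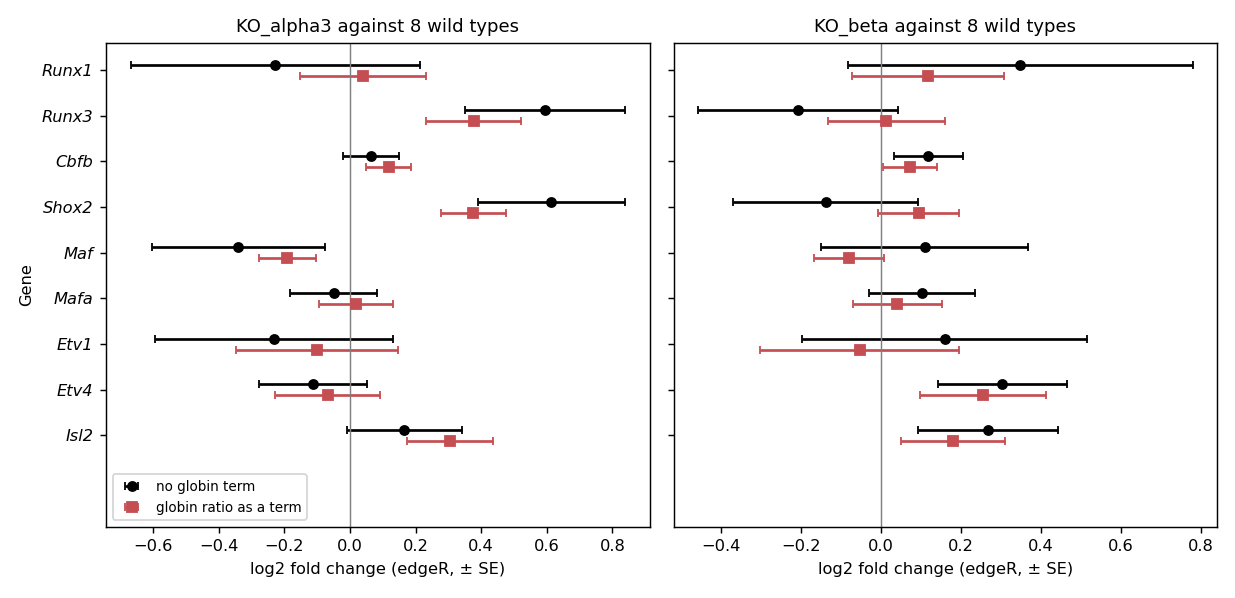
log2 fold change of each gene (horizontal axis, edgeR estimate ± SE) for KO_alpha3 and KO_beta against 8 wild types, without and with the globin ratio as a term in the fit. Runx3 and Shox2 have the highest KO_alpha3 estimates, 0.59 and 0.61, which are 0.38 and 0.38 with the term.

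The maturity of a library was measured by the log2 ratio of Hbb-bh1 to Hbb-y, embryonic globins of the primitive red cells left in the tissue. As those cells mature Hbb-bh1 falls earlier than Hbb-y, so a higher ratio marks less mature blood. The ratio ran from -7.00 in KO_beta 411 to -3.71 in KO_alpha3 81. Its widest gap lay between -6.03 and -5.17, with 11 libraries below it and 5 above: WT_beta 399, KO_alpha3 42, WT_alpha3 45, WT_alpha3 79 and KO_alpha3 81. Of those above, WT_beta 399 and KO_alpha3 42 and 81 had Y-linked sums at or below 0.320 CPM. KO_alpha3 50 and 75, with Y-linked counts, lay below the gap. Embryo sex and side of the gap therefore cannot be told apart within KO_alpha3.

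Along this ratio 8 of the 9 genes were called by edgeR, 2 positive and 6 negative, against 7283 of 15641 genes (46.6%), 20.7% positive and 25.8% negative. Nearly as many genes were called as not, so the count of members says little by itself. The median absolute slope was 0.35 over the members and 0.11 over all genes, in log2 units per unit of the ratio. Runx1 fell most steeply, by 0.73 ± 0.09 (SE, adjusted p = 2.48e-05), and Maf fell by 0.43 ± 0.04 (adjusted p = 5.89e-06), with 0.109% of genes at a lower p. Etv1 fell by 0.45 ± 0.10 (adjusted p = 0.00251) and Isl2 by 0.22 ± 0.06 (adjusted p = 0.00597). Shox2 rose by 0.36 ± 0.04 (adjusted p = 2.26e-05) and Runx3 rose by 0.35 ± 0.06 (adjusted p = 0.000372). The smaller slopes were Mafa, which fell by 0.13 ± 0.05 (adjusted p = 0.0366), and Cbfb, at -0.092 ± 0.029 (adjusted p = 0.018); Etv4, at -0.090 ± 0.067, was not called (adjusted p = 0.291). Leaving out each library in turn kept the calls of Runx1, Maf, Etv1, Shox2 and Runx3 in all 16 fits, lost that of Isl2 in 1 (without WT_alpha3 79, -0.12, adjusted p = 0.0786), that of Cbfb in 7 (without WT_alpha3 79, -0.027, adjusted p = 0.412) and that of Mafa in 11.

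**Figure D3:**
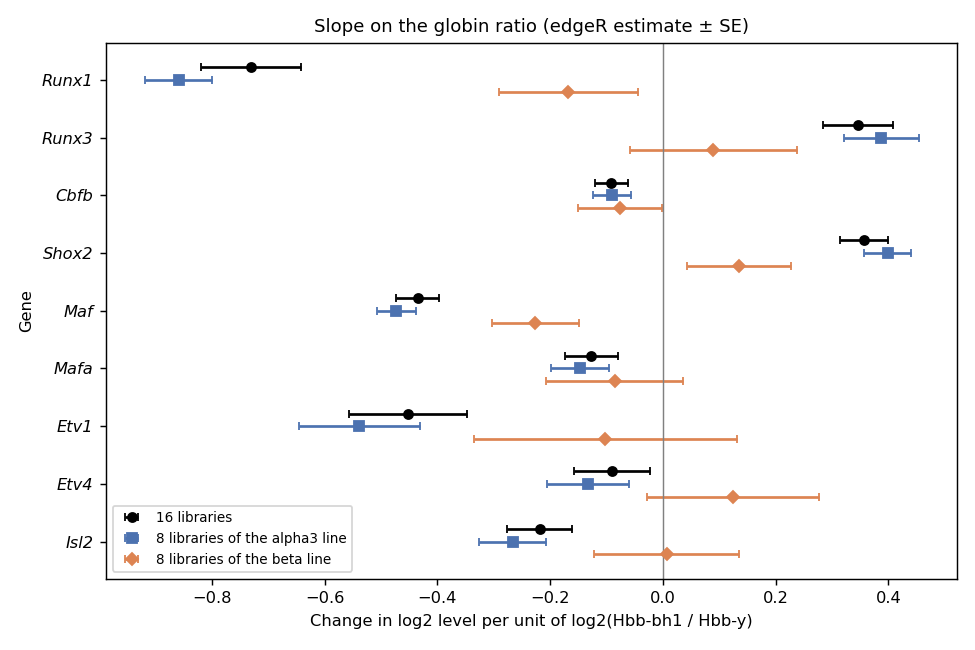
Slope of each gene on the globin ratio (horizontal axis, log2 change per unit of the log2 ratio, edgeR estimate ± SE) over 16 libraries and for each line. The slopes of the lines come from the same fit of all 16 libraries. Over 16 libraries Runx3 and Shox2 lie right of 0 and Runx1, Etv1 and Maf lie farthest left, and the estimates of the importin β1 line lie nearer 0 for those 5 genes.

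**Figure D4:**
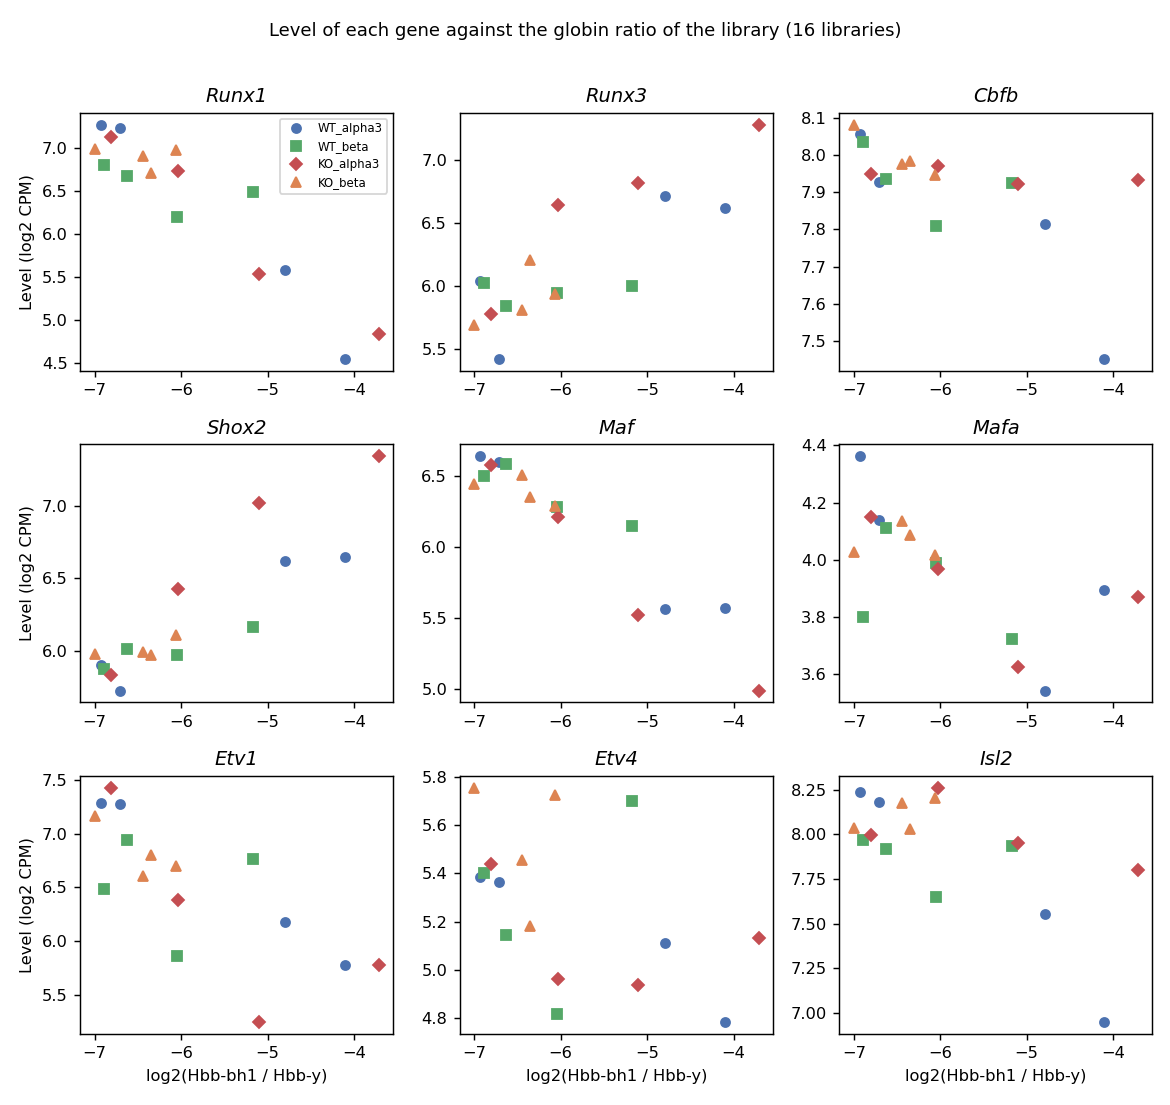
Level of each gene (vertical axis, log2 CPM) against the log2 ratio of Hbb-bh1 to Hbb-y (horizontal axis), 1 point for each of 16 libraries, coloured by group. Runx1 and Maf fall from left to right and Runx3 and Shox2 rise. The lowest values of Runx1 and Maf and the highest of Runx3 and Shox2 lie among the 5 libraries right of the gap. Runx3 also spreads left of it, from 42.8 to 99.7 CPM, against 63.9 to 156 right of it.

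Other measures moved with the ratio. The cell cycle genes summed to 650 to 1196 CPM in the 11 libraries below the gap and 1354 to 2496 in the 5 above, and all 18 of 18 tested rose along the ratio. The sensory neuron identity markers summed to 11765 to 17690 CPM below the gap and 8812 to 14112 above. Of 12 tested along the ratio 1 rose and 7 fell, so the sum does not stand for every marker. Pou4f1, which is in that list, had a median of 269 CPM below the gap and 315 above, with overlapping ranges. The erythroid markers summed to 380 to 3424 CPM below and 1591 to 10373 above. The glial and Schwann precursor markers fell in 6 of 10 tested. Of 10 sympathetic markers 4 rose and 1 fell, and of 7 motor neuron markers 3 rose and 1 fell. Of 11 spinal interneuron markers 2 rose and 0 fell. Over all genes 20.7% were called positive and 25.8% negative, so the rises among interneuron markers were near the share of all genes. Hoxa10, a gene of the posterior body axis, lay between 24.1 and 84.5 CPM in the libraries below the gap and between 0.877 and 59.9 above it, where its median was 4.38.

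The slopes were refitted with some of these measures as terms, chosen after seeing the data. All 18 cell cycle genes rose along the ratio, so a fit with both terms can hardly separate them. Calls lost in such a fit do not tell which of them carries the slopes. With the mean of the cell cycle genes as a term edgeR called 12 genes and none of the members. The slopes of Maf (-0.50, adjusted p = 0.106), Shox2 (0.44, adjusted p = 0.183) and Runx3 (0.37, adjusted p = 0.549) were then about as large as without it, that of Runx1 was -0.44 (adjusted p = 0.625), and that of Etv1 was 0.018. With the sensory identity markers as a term 516 genes and 2 members were called, Maf (-0.44, adjusted p = 0.00592) and Shox2 (0.38, adjusted p = 0.0154). Runx3 was then at 0.35 (adjusted p = 0.0966), Runx1 at -0.42 (adjusted p = 0.0571) and Etv1 at -0.12. In the 11 libraries below the gap alone 183 genes and none of the 9 were called, while the slopes of Etv1 (-1.0, adjusted p = 0.069), Runx1 (-0.54, adjusted p = 0.138), Runx3 (0.39, adjusted p = 0.294), Shox2 (0.29, adjusted p = 0.157) and Maf (-0.29, adjusted p = 0.0838) kept their direction. Which of these measures carries the slopes was not tested further.

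The correlation with the ratio over the 16 libraries, on log2 CPM, was r = -0.931 for Runx1 (rho = -0.871), -0.949 for Maf (rho = -0.888), 0.884 for Shox2 (rho = 0.847) and 0.827 for Runx3 (rho = 0.724). By a permutation test of 100000 resamples, 2-sided, the p for r was 1e-05 for Runx1 and Maf, the smallest such resamples can give, 8e-05 for Shox2 and 0.00021 for Runx3. For Etv1 r was -0.753 (rho = -0.809, permutation p for r = 0.00075), for Isl2 -0.662 (rho = -0.571, p = 0.00607), for Cbfb -0.646 (rho = -0.762, p = 0.00699), for Mafa -0.639 (rho = -0.697, p = 0.00815) and for Etv4 -0.466 (rho = -0.618, p = 0.0693). These 9 relations were not corrected over the list, and the libraries are the same in each. Without the 2 libraries farthest from the median, WT_alpha3 79 and KO_alpha3 81, r was -0.851 for Runx1, -0.913 for Maf, 0.811 for Shox2 and 0.711 for Runx3, while for Isl2 it was -0.515 (permutation p = 0.057) and no longer held. Within the 11 libraries below the gap r was -0.83 for Maf (permutation p = 0.00316), -0.72 for Etv1 (p = 0.0135) and -0.60 for Runx1 (p = 0.0479). It was -0.66 for Cbfb (p = 0.0229) and 0.65 for Shox2 (p = 0.0161), while their permutation p for rho was 0.0623 and 0.0757. For Runx3 r was 0.50 (permutation p = 0.113), for Etv4 -0.50 (p = 0.123), for Mafa -0.28 (p = 0.426) and for Isl2 -0.07 (p = 0.852). No correlation was computed over the 5 above. In the 8 wild types alone rho was -0.952 for Runx1, -0.905 for Maf and 0.881 for Shox2. For Runx3 rho was 0.381 there (exact permutation p = 0.36), with r at 0.77 (p = 0.0254). For Etv1 r was -0.69 (exact permutation p = 0.0691) and for Mafa -0.64 (p = 0.0904).

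**Figure D5:**
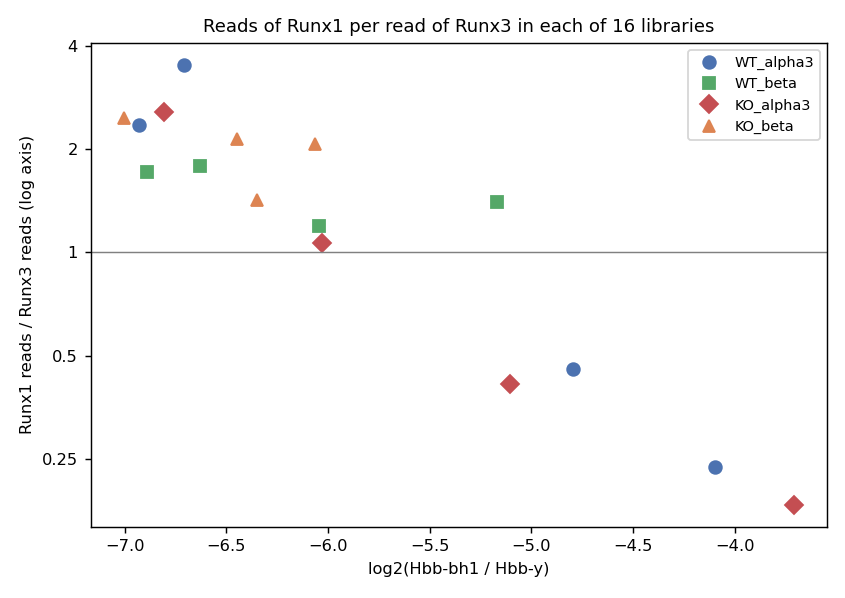
Ratio of Runx1 to Runx3 reads in each library (vertical axis, log scale) against the log2 ratio of Hbb-bh1 to Hbb-y (horizontal axis), coloured by group. The 4 libraries with the lowest ratios of Runx1 to Runx3, 0.184 to 0.456, lie right of the gap in the globin ratio, and WT_beta 399, also right of it, has 1.41.

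A slope for each line was also estimated, an analysis added after seeing the data. Both came from the same fit of all 16 libraries, so the lines share an estimate of spread. Within the importin α3 line 8 of the 9 genes were called (48.3% of all genes, with 21.5% positive and 26.9% negative), with Runx1 at -0.86 ± 0.06, Etv1 at -0.54, Maf at -0.47, Shox2 at 0.40 and Runx3 at 0.39. Within the importin β1 line none was called (2.65% of all genes, with 2.37% positive and 0.288% negative), with Runx1 at -0.17 ± 0.12, Maf at -0.23 and Shox2 at 0.13. The slope of Runx1 differed between the lines by 0.69 ± 0.13 (edgeR, adjusted p = 0.041), the only member called, against 0.895% of genes (0.806% positive and 0.0895% negative). Leaving out 1 library lost that call in 9 of 16 fits, and without WT_beta 399 the difference was 0.50 (adjusted p = 0.936). The other libraries of the importin β1 line span -7.00 to -6.04 in the globin ratio.

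Among the members, 22 of 36 pairs were positively correlated over the 16 libraries. For the 8 pairs chosen by role, r was -0.815 for Runx1 with Runx3 (rho = -0.703, permutation p = 0.00026), 0.937 for Runx3 with Shox2 (rho = 0.709, p = 1e-05), 0.814 for Runx1 with Isl2 (rho = 0.812, p = 0.00023) and 0.688 for Etv1 with Etv4 (rho = 0.656, p = 0.00392). Runx1 with its partner Cbfb had r = 0.725 (rho = 0.706, permutation p = 0.00163) and Runx3 with Cbfb had r = -0.335 (rho = -0.306, p = 0.2). The large Maf proteins, Maf with Mafa, had r = 0.685 (rho = 0.862, permutation p = 0.00338), and Runx3 with Etv1 had r = -0.770 (rho = -0.732, p = 0.00057). In the 8 wild types alone rho was -0.452 for Runx1 with Runx3 (exact permutation p = 0.267) and 0.595 for Runx3 with Shox2 (p = 0.132). It was -0.429 for Runx3 with Etv1, -0.214 for Runx3 with Cbfb and 0.643 for Etv1 with Etv4 (exact permutation p = 0.0962). For Runx1 with Isl2 it was 0.976, for Runx1 with Cbfb 0.905 and for Maf with Mafa 0.881. In these 8 wild types r was -0.82 for Runx1 with Runx3 (exact permutation p = 0.0163). It was 0.92 for Runx3 with Shox2 (exact permutation p = 0.00422) and 0.73 for Etv1 with Etv4 (exact permutation p = 0.0438). For Runx3 it was -0.675 with Etv1 (exact permutation p = 0.0645) and -0.59 with Cbfb (exact permutation p = 0.143). For Runx1 r was 0.99 with Isl2 and 0.93 with Cbfb, and for Maf with Mafa it was 0.72 (exact permutation p = 0.0462). Once group and globin ratio were removed, r was 0.779 for Runx1 with Isl2 (permutation p = 0.00031), 0.673 for Runx3 with Shox2 (p = 0.00463) and 0.618 for Etv1 with Etv4 (p = 0.0107). For the other pairs the permutation p was above 0.05: -0.324 for Runx1 with Runx3 (permutation p = 0.22), 0.43 for Runx1 with Cbfb (p = 0.0977), 0.318 for Runx3 with Cbfb (p = 0.234), 0.43 for Maf with Mafa (p = 0.101) and -0.39 for Runx3 with Etv1 (p = 0.139). The opposite pattern of Runx1 and Runx3 was therefore not detectable apart from group and ratio in these libraries.

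The genes whose log2 CPM pattern over the 16 libraries was closest, among 13412 compared, were Prdm8 for Runx1 (r = 0.991), Patz1 for Runx3 (0.963), Parp1 for Shox2 (0.976), Ldb2 for Maf (0.979), Gnal for Etv1 (0.961), Eml1 for Isl2 (0.971) and Creb3 for Cbfb (0.968). Mafa (Tesk1, 0.918) and Etv4 (Mars, 0.876) had less close neighbours. None of these neighbours is one of the 9 genes.

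Other genes of the pathway were followed in lists, to be read against the 20.7% of all genes called positive and 25.8% called negative along the globin ratio. Of 24 tested pan-sensory and lineage factors, 10 rose and 9 fell along the globin ratio, with a median slope of 0.031. Among those that fell were Prdm8 (-0.82) and Pou4f2 (-0.53). Of 20 tested paralogues and protein partners of the 9 genes, 6 rose and 7 fell, among them the LIM cofactor Ldb2 (-0.90), the corepressors Tle1 (-0.24) and Tle2 (-0.37), and Lmo1 (0.43). Of 26 tested subtype receptors and effectors, 1 rose (Ntrk3, the receptor of proprioceptor-lineage neurons, 0.11) and 18 fell; the peptide gene Tac1 fell by 1.33, the channel gene Trpv1 by 1.39, the sodium channel gene Scn10a by 0.57 and the receptor gene Gfra3 by 0.40. The median slope of that last list was -0.32, against -0.0049 over all genes. No gene of these lists was called in either knockout comparison.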

How the data were processed

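PolyA RNA sequencing of lumbar dorsal root ganglia gave 16 libraries. The submitters' processing notes name TopHat2 2.0.10, HTSeq 0.6.1p1, DESeq2 1.6.3, cutadapt and bcl2fastq 2.17.1.14, and the build mm10. Which annotation and strand setting were counted is not given in the sources used here. The authors deposited read counts per gene symbol, which were the unit of every edgeR and DESeq2 fit. The authors also deposited a normalized signal, equal to the count times 1 constant per library, used in 1 alternative.

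Counts were tested in edgeR 4.0.16 (quasi-likelihood, TMM, minimum count 10, minimum total 15), with Benjamini-Hochberg adjusted p over 15641 genes and a threshold of 0.05, in R 4.3.3. DESeq2 1.42.0 and limma 3.58.1 were alternatives. Knockouts were compared with the 8 wild types in a fit of 3 groups, the wild types of the lines in a fit of 4 groups, and the slope with the globin ratio added to the fit of 3 groups. Correlations used log2 CPM (prior count 2) in Python 3.11.15 and SciPy 1.17.1. The scripts were tested on simulated data. The named genes are the 9 members, Kpna4 and Kpnb1, from each other list the 2 genes with the lowest p in a comparison, or up to 4 where one passes, and the 3 closest patterns per gene, of which 1 is printed; Ntrk3 was named as the only rise in its list after its value was seen. The members and lists were chosen with earlier results of these data known.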

Additional observations from a re-analysis of the deposited data

Results flagged for a closer look

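Over 45 groups of values, 3 held a library far from the others, and chance flags about 1 in 20 groups. Cbfb in the wild types was 175 CPM in WT_alpha3 79, below the next library at 224. Shox2 in KO_beta was 68.9 CPM in library 398, above the next at 63.7. Isl2 in WT_beta was 201 CPM in library 401, below the next at 242. The slope of Runx1 on the globin ratio differed between the lines by 0.69 on the log2 scale, a difference that was not called without WT_beta 399.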

How the results depend on the processing

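No paired analysis was possible because the groups share no replicate number. None of the 9 genes was called in a knockout or wild-type comparison under any alternative run. The cause of each change below was not tested. DESeq2 called 128 genes for KO_alpha3 (26 higher, 102 lower), 1 for KO_beta and 29 between the wild types (15 higher, 14 lower). Between the wild types the count was 5 with Y-linked counts as a term, 9 in the 8 wild types alone and 5 with the globin ratio as a term. Leaving out 1 library gave 1 to 124 genes for KO_alpha3, the highest without KO_alpha3 50.

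The slope on the globin ratio called 3655 genes and 5 of the 9 without WT_alpha3 45 and 79 and WT_beta 399 and 401 (libraries high in genes of other tissues), and 4553 genes with adult over embryonic globins, sign turned, as the measure. It called 183 and 0 in the 11 libraries below the gap, 516 and 2 (1 positive, 1 negative) with sensory identity markers as a term, and 12 and 0 with cell cycle genes. With interneuron markers as a term the calls of Cbfb (-0.057, edgeR adjusted p = 0.176), Mafa (-0.15, adjusted p = 0.0569) and Isl2 (-0.18, adjusted p = 0.0515) were lost. These last 4 settings were chosen after seeing the data. Calls of Cbfb and Mafa were also lost with upper quartile scaling, with library size only and without the filter, those of Cbfb and Isl2 with the adult globin measure and without the 3 libraries low in Hoxa10, those of Etv1 (-0.38, adjusted p = 0.0528) and Mafa in the 8 wild types alone, and that of Mafa with the Y-linked term. Runx1, Runx3, Shox2 and Maf kept their direction under every alternative run, with Maf at -0.50 and Shox2 at 0.44 with the cell cycle term. Leaving out 1 library gave 5799 to 7640 genes and 6 to 8 of the 9.

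The slopes that changed sign were, with the cell cycle term, Cbfb 0.054, Mafa 0.079, Etv1 0.018, Etv4 0.12 and Isl2 0.11; with the sensory identity term, Cbfb 0.018, Etv4 0.16 and Isl2 0.018; and with the interneuron term, Etv4 0.011. The correlation of Runx3 with Cbfb was 0.318 on residuals of group and ratio.

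The sign changes in the knockout and wild-type comparisons were all of uncalled values. With the globin term KO_alpha3 gave Runx1 0.039 and Mafa 0.018, and KO_beta gave Runx3 0.013, Shox2 0.093, Maf -0.081 and Etv1 -0.054. With the Y-linked term KO_beta gave Maf -0.037 and Etv1 -0.19, and the wild types Runx1 1.54, Mafa 0.18 and Etv1 1.12. Without the 4 libraries named above KO_alpha3 gave Cbfb -0.031 and Isl2 -0.055, KO_beta gave Runx1 -0.11, Runx3 0.070, Shox2 0.13, Maf -0.18, Mafa -0.048 and Etv1 -0.20, and the wild types gave Runx3 0.19, Shox2 0.15, Maf -0.058, Etv4 -0.077 and Isl2 -0.25. Without the 3 libraries low in Hoxa10 (KO_alpha3 81, WT_alpha3 79 and WT_beta 399) KO_beta gave Maf -0.0077, and the wild types Cbfb -0.0055, Etv4 -0.15 and Isl2 -0.17. Against the wild types of its own line KO_beta gave Shox2 0.0036.

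Runx1 between the wild types, at -0.00010 in the main comparison, was 0.015 with DESeq2 size factors and with DESeq2, 0.053 with upper quartile scaling, 0.080 with library size only, 0.030 without the filter, 0.012 with a mean of 1 CPM, 0.38 with limma-voom, 0.39 with limma-trend and 0.0074 in the 8 wild types alone. Leaving out 1 library gave, for KO_alpha3, Runx1 -0.62 to 0.056, Mafa -0.12 to 0.040 and Etv1 -0.78 to 0.017, and between the wild types Runx1 -0.30 to 0.35, Mafa -0.21 to 0.031, Etv1 -0.41 to 0.011, Etv4 -0.040 to 0.26 and Isl2 -0.13 to 0.22. With 4 libraries a group and this spread along the globin ratio, differences of the size of the standard errors above could not be detected.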
